A study of Mus musculus with 12 samples.

Results

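Metallothioneins and the carriers, stores, sensors and channels of zinc, iron, copper, magnesium and calcium were examined in colonocytes, the absorptive lining cells of the colon. The genes were chosen by symbol: all metallothioneins, all numbered members of the metal carrier families Slc11, Slc30, Slc31, Slc39, Slc40 and Slc41, and a set of named iron, copper, magnesium and calcium genes. There were 46 matches among the 15154 rows that the authors deposited. The samples were colonocytes isolated from the colons of C57BL/6 mice, 6 from germfree mice (GF, raised without microbes in isolators) and 6 from conventionally raised mice (CONV), measured on Illumina bead arrays, 1 array a sample. Each batch of the labels held 3 samples of each group, batch 1 with replicates 1 to 3 and batch 2 with replicates 4 to 6. The labels call the samples of a group biological replicates and give no age, sex or diet. They do not say what set the batches apart.

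Metallothioneins are small cysteine-rich proteins that bind zinc and copper in the cytosol, and their transcripts rise when free zinc rises, through the zinc-sensing transcription factor Mtf1. Carriers of the Slc30 family move zinc out of the cytosol, into vesicles or out of the cell, and carriers of the Slc39 family move it in. Iron enters through the transferrin receptor and through reductases and divalent metal carriers, is stored in ferritin and leaves through ferroportin, the product of Slc40a1. Iron regulatory proteins keep the transferrin receptor transcript stable and ferritin translation low when cell iron is low.

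Of the 46 genes 37 were detected well enough to test and 9 were not. A gene was tested where its deposited detection p-value, the chance of its signal among negative controls, was below 0.05 on at least 3 arrays. Values below are levels, the log2 of the background-corrected and normalized intensity, and differences are GF minus CONV with batch in the model, ± the standard error, with 6 samples a group. The lowest level still detected on an array lay between 5.15 and 5.63. Each adjusted p comes from limma with Benjamini-Hochberg adjustment over all 8107 genes tested, and a gene passed at 0.05. In whole colonocyte samples, fewer cells of a type and less RNA per cell cannot be told apart.

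Over the 12 arrays 8 genes were higher in GF (Mt1, Mt2, Mtf1, Slc30a1, Tfrc, Slc40a1, Atp7a and Slc41a2), 4 were lower (Slc30a10, Slc39a4, Slc39a10 and Steap1) and 25 did not pass. For Slc39a10 the CONV arrays of batch 1 alone were enough to meet the detection filter. The 12 that passed were 32.4% of those tested, and of all genes tested 23.3% passed, 11.3% higher and 12.0% lower. Counts given below by role, pathway list or cell type stand beside these shares of all genes. The median difference was 0.08 among the 37 genes and 0.01 among all genes. Both genes with the largest rises were metallothioneins, and the largest fall among genes detected in both groups of both batches was that of the zinc importer Slc39a4.

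**Figure D1:**
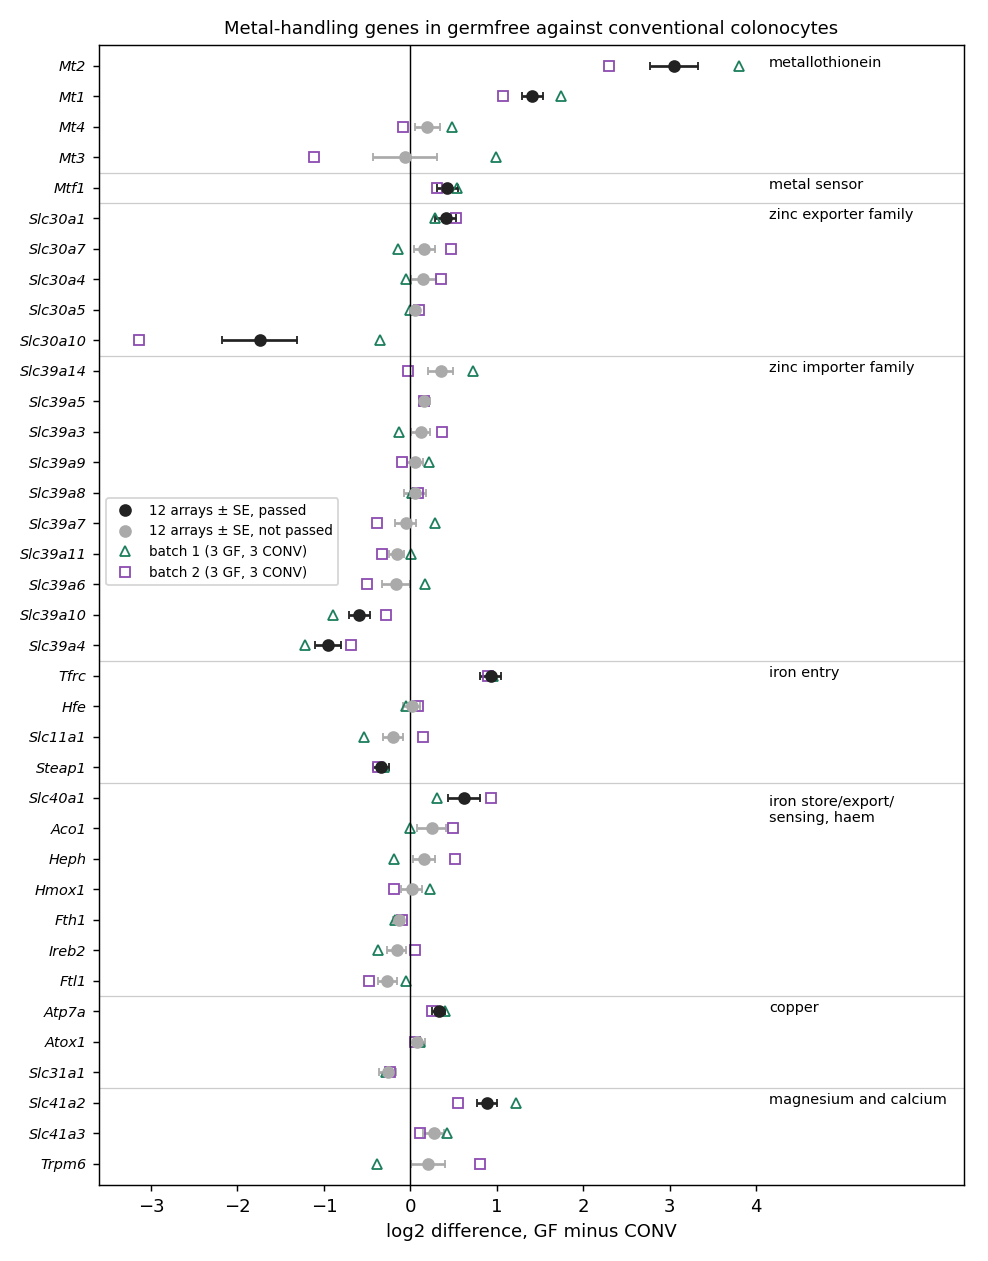
Log2 difference, GF minus CONV, of the 37 metal-handling genes tested, grouped by role. Circles give the fit over 12 arrays with its standard error, black where the adjusted p was below 0.05 and grey where it was not. Triangles give batch 1 and squares batch 2, each with 3 GF and 3 CONV arrays. Among the circles Mt2 lies farthest to the right at 3.05 and Slc30a10 farthest to the left at -1.74, and for Mt3 the batches lie on opposite sides of 0.

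Mt1 and Mt2, the metallothioneins made in most tissues, were both higher in GF in both batches. Mt2 had levels of 10.995, 10.997 and 10.880 in GF and 7.08, 7.22 and 7.16 in CONV in batch 1, and of 8.41, 8.08 and 7.97 in GF and 5.27, 5.68 and 6.62 in CONV in batch 2. No GF array overlapped a CONV array of its batch. The difference was 3.05 ± 0.28, 8.28-fold (adjusted p = 1.97e-05), and Mt2 was detected on 2 of the 3 CONV arrays of batch 2. The size depended on the background correction and weighting: it was 2.23, 4.69-fold, with no background correction, 2.42, 5.34-fold, with normexp without controls, and 3.64, 12.5-fold, with array weights, all past the threshold. Within batches it was 3.80 (adjusted p = 5.28e-09) in batch 1 and 2.29 (adjusted p = 0.026) in batch 2, and it was smaller in batch 2 by the interaction of batch and group (-1.51 ± 0.37, adjusted p = 0.0267). Of the CONV levels in batch 2, 5.27 lay within the range of lowest detected levels and 5.68 just above it. How far background limited the size of the batch 2 difference was not tested.

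Mt1 was among the brightest of these genes. Its levels were 14.70, 14.84 and 14.76 in GF against 12.995, 12.980 and 13.076 in CONV in batch 1, and 15.12, 15.17 and 15.09 in GF against 14.30, 13.91 and 13.94 in CONV in batch 2. Again the groups did not overlap. Mt1 rose by 1.41 ± 0.12, 2.66-fold (adjusted p = 1.32e-05), by 1.75 in batch 1 (adjusted p = 1.97e-07) and by 1.07 in batch 2 (adjusted p = 0.0198). The rise was smaller in batch 2 (-0.67 ± 0.15, adjusted p = 0.0168). The Mt1 and Mt2 transcripts are alike in sequence, and how far a probe of one also bound the other was not tested.

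The other metallothioneins did not pass over the 12 arrays. Mt3, known chiefly from brain, had levels of 6.92, 7.06 and 6.67 in GF against 5.35, 6.13 and 6.20 in CONV in batch 1, and of 8.23, 7.01 and 8.04 in GF against 8.55, 9.04 and 9.04 in CONV in batch 2. GF lay above CONV in batch 1 and below it in batch 2. Over all arrays the difference was -0.06 ± 0.37 (adjusted p = 0.926), with 0.99 in batch 1 (adjusted p = 0.00452), -1.12 in batch 2 (adjusted p = 0.128) and an interaction of -2.11 ± 0.44 (adjusted p = 0.0127). Mt4, known from stratified epithelium, was detected on the 3 GF arrays of batch 1 alone (5.34, 5.36 and 5.51, against 5.04, 4.83 and 4.89 in CONV), at least 1.18-fold there. It met the detection filter through those 3 arrays only, so no test is read from batch 1, and its difference over all arrays was 0.20 ± 0.15 (adjusted p = 0.365).

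Mtf1, the factor that senses zinc and binds metal response elements in metallothionein promoters, was higher in GF by 0.43 ± 0.12, 1.34-fold (adjusted p = 0.0215). Its levels were 6.41, 6.63 and 6.62 in GF against 5.85, 6.05 and 6.12 in CONV in batch 1, and 7.62, 8.14 and 7.75 in GF against 7.43, 7.30 and 7.86 in CONV in batch 2. The groups overlapped in batch 2, where the difference was 0.31 (adjusted p = 0.439), against 0.54 in batch 1 (adjusted p = 0.00125). The call was lost without GF replicate 2, GF replicate 3 or CONV replicate 1, with adjusted p between 0.0511 and 0.0535.

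Promoter sequences are shown for Mt1 and Mt2 and for the exporters Slc30a1 and Slc30a10, because these metallothioneins and Slc30a1 are known targets of Mtf1 in mouse and because Slc30a10 was the exporter that moved the other way. RefSeq promoter windows of 300 bases, 250 before and 50 after the transcription start, were found for 39 of the 46 genes. Capitals mark matches to TGCACNC or TGCGCNC, the core letters of the metal response element, searched on both strands. All are on build GRCm38.p6 and the plus strand: Mt1 at chr8:94178839-94179138, Mt2 at chr8:94172368-94172667, Slc30a1 at chr1:191906531-191906830 and Slc30a10 at chr1:185454598-185454897.
Mt1: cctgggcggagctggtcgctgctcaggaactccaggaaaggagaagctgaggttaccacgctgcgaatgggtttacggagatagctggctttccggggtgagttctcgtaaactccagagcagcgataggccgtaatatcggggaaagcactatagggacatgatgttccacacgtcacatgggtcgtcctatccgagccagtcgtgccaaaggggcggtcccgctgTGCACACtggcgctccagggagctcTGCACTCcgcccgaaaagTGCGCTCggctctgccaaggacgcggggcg
Mt2: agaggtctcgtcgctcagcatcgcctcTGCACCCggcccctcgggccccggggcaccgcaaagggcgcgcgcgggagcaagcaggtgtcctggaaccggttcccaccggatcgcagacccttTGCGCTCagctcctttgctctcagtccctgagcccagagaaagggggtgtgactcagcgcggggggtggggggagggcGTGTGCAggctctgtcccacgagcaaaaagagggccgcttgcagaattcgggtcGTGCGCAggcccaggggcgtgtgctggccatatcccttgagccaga
Slc30a1: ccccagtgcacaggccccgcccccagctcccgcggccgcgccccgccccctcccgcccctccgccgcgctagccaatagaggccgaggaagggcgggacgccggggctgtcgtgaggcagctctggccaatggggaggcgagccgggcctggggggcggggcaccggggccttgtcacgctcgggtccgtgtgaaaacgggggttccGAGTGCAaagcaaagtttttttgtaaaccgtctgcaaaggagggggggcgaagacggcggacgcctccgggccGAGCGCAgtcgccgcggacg
Slc30a10: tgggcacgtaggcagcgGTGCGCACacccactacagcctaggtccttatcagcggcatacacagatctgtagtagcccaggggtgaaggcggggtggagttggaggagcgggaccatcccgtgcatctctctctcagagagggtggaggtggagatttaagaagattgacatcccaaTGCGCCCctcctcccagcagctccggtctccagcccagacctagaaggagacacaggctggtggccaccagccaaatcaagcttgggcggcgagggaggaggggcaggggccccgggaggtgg

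The Mt1 window held 3 matches, that of Mt2 held 4, that of Slc30a1 held 2 and that of Slc30a10 held 3, of which the first pair overlap on opposite strands. Among 32851 windows of RefSeq genes, 25.7% held at least 1 match, 7.11% at least 2, 1.97% at least 3 and 0.517% at least 4. Slc30a4, a vesicular zinc carrier whose difference did not pass, also held 3, and Mtf1 itself held 0. A match here is a run of letters and not a measured binding site.

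Among the zinc exporter family 1 of 5 genes was higher in GF, 1 was lower and 3 did not pass. Slc30a1 exports zinc across the plasma membrane. It had levels of 10.24, 10.37 and 10.25 in GF against 9.98, 9.95 and 10.07 in CONV in batch 1, and of 8.99, 9.19 and 9.52 in GF against 8.59, 9.11 and 8.42 in CONV in batch 2. GF lay above CONV in batch 1 and the groups overlapped in batch 2. Slc30a1 rose by 0.41 ± 0.12, 1.33-fold (adjusted p = 0.0309), with 0.29 in batch 1 (adjusted p = 0.00596) and 0.53 in batch 2 (adjusted p = 0.249). Leaving out GF replicate 2 or 6 or CONV replicate 1, 2, 4 or 6 ended the call, with adjusted p between 0.0507 and 0.0627.

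Slc30a10, which in mouse and human carries manganese out of the cell, went the other way. Its levels were 5.16, 5.11 and 5.14 in GF against 5.43, 5.54 and 5.50 in CONV in batch 1, and 5.04, 6.14 and 5.11 in GF against 8.47, 8.93 and 8.31 in CONV in batch 2. Every GF array lay below every CONV array of its batch, by a small margin in batch 1 and a wide one in batch 2. In batch 1 the levels of both groups lay near background, no higher than the range of the lowest detected levels. The difference was -1.74 ± 0.43 (adjusted p = 0.0124), with -0.35 in batch 1 (adjusted p = 0.000934), -3.14 in batch 2 (adjusted p = 0.00894) and an interaction of -2.78 ± 0.35 (adjusted p = 0.00104). It was -1.03 with no background correction, -1.15 with normexp without controls and -0.67 with array weights, each still past the threshold. By the deposited detection p-values the gene was detected on 1 GF and 2 CONV arrays, all of batch 1, and on no array of batch 2, although the CONV levels there were well above the lowest detected level, so no fold is given. Slc30a5 and Slc30a7, which load zinc into the secretory pathway, were the brightest exporters that did not pass, with differences of 0.05 ± 0.05 (adjusted p = 0.573) and 0.16 ± 0.13 (adjusted p = 0.387). Slc30a4 did not pass either (0.15 ± 0.14, adjusted p = 0.487).

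**Figure D2:**
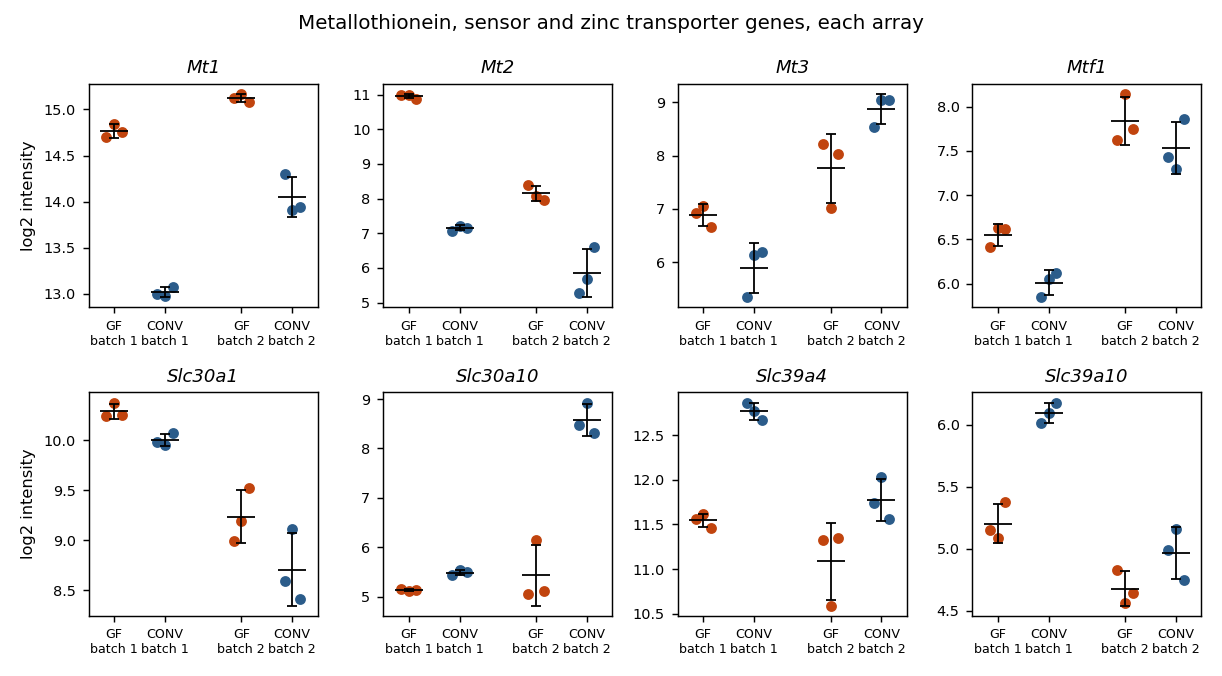
Levels (log2 intensity) of Mt1, Mt2, Mt3, Mtf1, Slc30a1, Slc30a10, Slc39a4 and Slc39a10 on each array, GF left of CONV within each batch, with bars at the mean ± SD of the 3 arrays. Mt1 and Mt2 lie above CONV and Slc39a4 below CONV on every GF array of each batch, and the wide gap of Slc30a10 is in batch 2.

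Of 12 genes of the zinc importer family 10 were tested, 0 were higher in GF, 2 were lower and 8 did not pass. In limma's fit 2 of the 10, both named below, had a positive difference with an unadjusted p below 0.05. Slc39a4 is the main importer of dietary zinc at the luminal face of the gut, and in mouse its transcript and protein are known to fall when zinc is plentiful. Its levels were 11.56, 11.61 and 11.46 in GF against 12.86, 12.77 and 12.67 in CONV in batch 1, and 11.33, 10.59 and 11.35 in GF against 11.74, 12.03 and 11.56 in CONV in batch 2. All GF arrays lay below the CONV arrays of their batch. The difference was -0.95 ± 0.15, 1.94-fold lower (adjusted p = 0.000801), with -1.22 in batch 1 (adjusted p = 2.87e-06) and -0.69 in batch 2 (adjusted p = 0.178).

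Slc39a10, a zinc importer of the plasma membrane, had levels of 5.15, 5.08 and 5.38 in GF against 6.01, 6.10 and 6.18 in CONV in batch 1. It met the filter through that batch, with 1 GF and 3 CONV arrays, and was detected on no array of batch 2, where its levels were 4.83, 4.56 and 4.65 in GF and 4.99, 5.16 and 4.74 in CONV. The groups were apart in batch 1 and overlapped, near background, in batch 2. The 3 CONV arrays alone were enough to meet the filter, so no test is read from batch 1, where the difference was -0.89. Over all arrays the difference was -0.59 ± 0.12 (adjusted p = 0.00485), which takes in the batch 2 levels near background.

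Slc39a14, which takes up zinc, manganese and iron, and Slc39a7, which releases zinc from the secretory pathway, did not pass over 12 arrays but differed between the batches. Slc39a14 had levels of 6.46, 6.28 and 6.51 in GF against 5.69, 5.70 and 5.67 in CONV in batch 1, and of 4.91, 5.42 and 5.10 in GF against 5.40, 4.91 and 5.19 in CONV in batch 2, where 1 array of each group detected it. Its difference was 0.35 ± 0.15 (adjusted p = 0.105), with 0.73 in batch 1 (adjusted p = 5.23e-05), -0.02 in batch 2 and an interaction of -0.75 ± 0.20 (adjusted p = 0.0439). It was clearly higher in GF in batch 1 and near background in batch 2.

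Slc39a7 had levels of 8.73, 8.58 and 8.47 in GF against 8.21, 8.30 and 8.41 in CONV in batch 1, and of 8.25, 8.47 and 8.32 in GF against 8.87, 8.73 and 8.60 in CONV in batch 2. The GF arrays lay above CONV in batch 1 and below CONV in batch 2. The differences were 0.28 (adjusted p = 0.0204) and -0.39 (adjusted p = 0.163), with an interaction of -0.67 ± 0.15 (adjusted p = 0.0174). The brightest importers that did not pass were Slc39a11, with -0.16 ± 0.08 (adjusted p = 0.199), and Slc39a5, a basolateral zinc carrier of enterocytes, with 0.16 ± 0.06 (adjusted p = 0.0941). Slc39a3, Slc39a6, Slc39a8 and Slc39a9 had differences between -0.17 and 0.12, none past the threshold over the 12 arrays. Within batch 1 Slc39a9 rose by 0.21 (adjusted p = 0.0229). Slc39a12 was detected on no array and Slc39a13 on 2 GF arrays of batch 1.

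Of 7 iron entry genes 4 were tested, 1 was higher in GF and 1 lower. Tfrc, the transferrin receptor, through which cells take up transferrin-bound iron, had levels of 12.51, 12.72 and 12.71 in GF against 11.90, 11.60 and 11.57 in CONV in batch 1, and of 12.77, 12.09 and 12.92 in GF against 11.68, 11.70 and 11.69 in CONV in batch 2. No GF array overlapped a CONV array. Tfrc rose by 0.93 ± 0.12, 1.90-fold (adjusted p = 0.000287), and by 0.96 and 0.90 within batches 1 and 2, of which the second did not pass alone (adjusted p = 9.05e-05 and 0.0849). The interaction of batch and group was -0.05 ± 0.25 (adjusted p = 0.933).

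Steap1, grouped under iron entry because its family holds metal reductases, was the gene of that role that fell. Whether Steap1 itself acts in iron entry was not tested. It had levels of 6.68, 6.63 and 6.58 in GF against 7.007, 6.995 and 6.812 in CONV in batch 1, and of 7.42, 7.17 and 7.07 in GF against 7.70, 7.30 and 7.78 in CONV in batch 2. The groups were apart in batch 1 and overlapped in batch 2. The difference was -0.34 ± 0.09, 1.27-fold lower (adjusted p = 0.0199), with -0.31 in batch 1 (adjusted p = 0.00658) and -0.37 in batch 2 (adjusted p = 0.285).

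Slc11a1, a metal carrier of phagosomes in macrophages, and Hfe, which modifies iron sensing, did not pass over the 12 arrays. Slc11a1 had levels of 6.82, 6.91 and 6.98 in GF against 7.48, 7.46 and 7.39 in CONV in batch 1, and of 7.26, 7.58 and 7.46 in GF against 7.35, 7.27 and 7.25 in CONV in batch 2. Its difference was -0.54 in batch 1 (adjusted p = 0.00016) and 0.14 in batch 2 (adjusted p = 0.57), with an interaction of 0.68 ± 0.13 (adjusted p = 0.00899). By the deposited p-values it was detected on 5 arrays of batch 1 and 1 of batch 2. Hfe differed by 0.02 ± 0.09 (adjusted p = 0.928). Cybrd1, the ferric reductase of the duodenal brush border, and Steap4 were detected on no array, and Steap3 on 1 CONV array.

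Slc40a1, the ferroportin gene and the known route of iron out of cells, was the 1 gene of 7 tested for iron store, export, sensing and haem that was higher in GF, and 0 of the 7 were lower. In limma's fit Fth1 and Ftl1 of these 7 were lower at an unadjusted p below 0.05. Slc40a1 had levels of 12.34, 12.34 and 12.27 in GF against 11.98, 12.00 and 12.04 in CONV in batch 1, and of 13.19, 14.22 and 13.03 in GF against 12.78, 12.52 and 12.35 in CONV in batch 2. All GF arrays lay above the CONV arrays of their batch, and GF replicate 5 stood highest. The difference was 0.62 ± 0.19, 1.54-fold (adjusted p = 0.0327), with 0.31 in batch 1 (adjusted p = 0.00173) and 0.93 in batch 2 (adjusted p = 0.173). Without GF replicate 5 it was 0.42 (adjusted p = 0.00447). The call was lost without GF replicate 1 or 2 or CONV replicate 5 or 6, and with 75th percentile scaling, cyclic loess or no detection filter, with adjusted p between 0.0516 and 0.0678.

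Ferritin transcripts did not pass over the 12 arrays. Fth1, the heavy chain, had levels of 13.65, 13.67 and 13.71 in GF against 13.80, 13.88 and 13.86 in CONV in batch 1, and of 14.73, 14.63 and 14.90 in GF against 14.84, 14.90 and 14.82 in CONV in batch 2. The differences were -0.14 ± 0.06 for Fth1 (adjusted p = 0.13) and -0.27 ± 0.11 for the light chain Ftl1 (adjusted p = 0.0928). GF means were below CONV means in both. Ftl1 differed by -0.05 in batch 1 (adjusted p = 0.783) and by -0.48 in batch 2 (adjusted p = 0.0802). Within batch 1 Fth1 passed, with all GF arrays below CONV (-0.17, adjusted p = 0.0298). Ferritin genes have processed copies in the mouse genome, and what share of the signal such copies gave was not tested. Ftl1 was detected on all arrays of batch 1 and on no array of batch 2. Its levels in batch 2 were nevertheless 11.24, 11.23 and 11.38 in GF against 11.70, 11.85 and 11.75 in CONV, all GF arrays below CONV.

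Heph, which oxidises iron as it leaves the enterocyte, had levels of 9.38, 9.22 and 9.23 in GF against 9.40, 9.49 and 9.51 in CONV in batch 1, and of 10.23, 9.83 and 10.09 in GF against 9.63, 9.60 and 9.38 in CONV in batch 2. GF lay below CONV in batch 1 and above it in batch 2, by -0.19 (adjusted p = 0.0443) and 0.52 (adjusted p = 0.122), with an interaction of 0.70 ± 0.16 (adjusted p = 0.0193). The iron regulatory proteins Ireb2 (-0.16 ± 0.11, adjusted p = 0.314) and Aco1 (0.25 ± 0.17, adjusted p = 0.324) did not pass, nor did the haem oxygenase Hmox1 (0.02 ± 0.12, adjusted p = 0.948), which was detected on the arrays of batch 1 alone. Within batch 1 Ireb2 fell by 0.37 (adjusted p = 0.00108) and Hmox1 rose by 0.22 (adjusted p = 0.0189), with no overlap of the groups for either gene. The ferroxidase-like gene Hephl1 and the row Ftl2, now named as a pseudogene, were detected on no array.

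**Figure D3:**
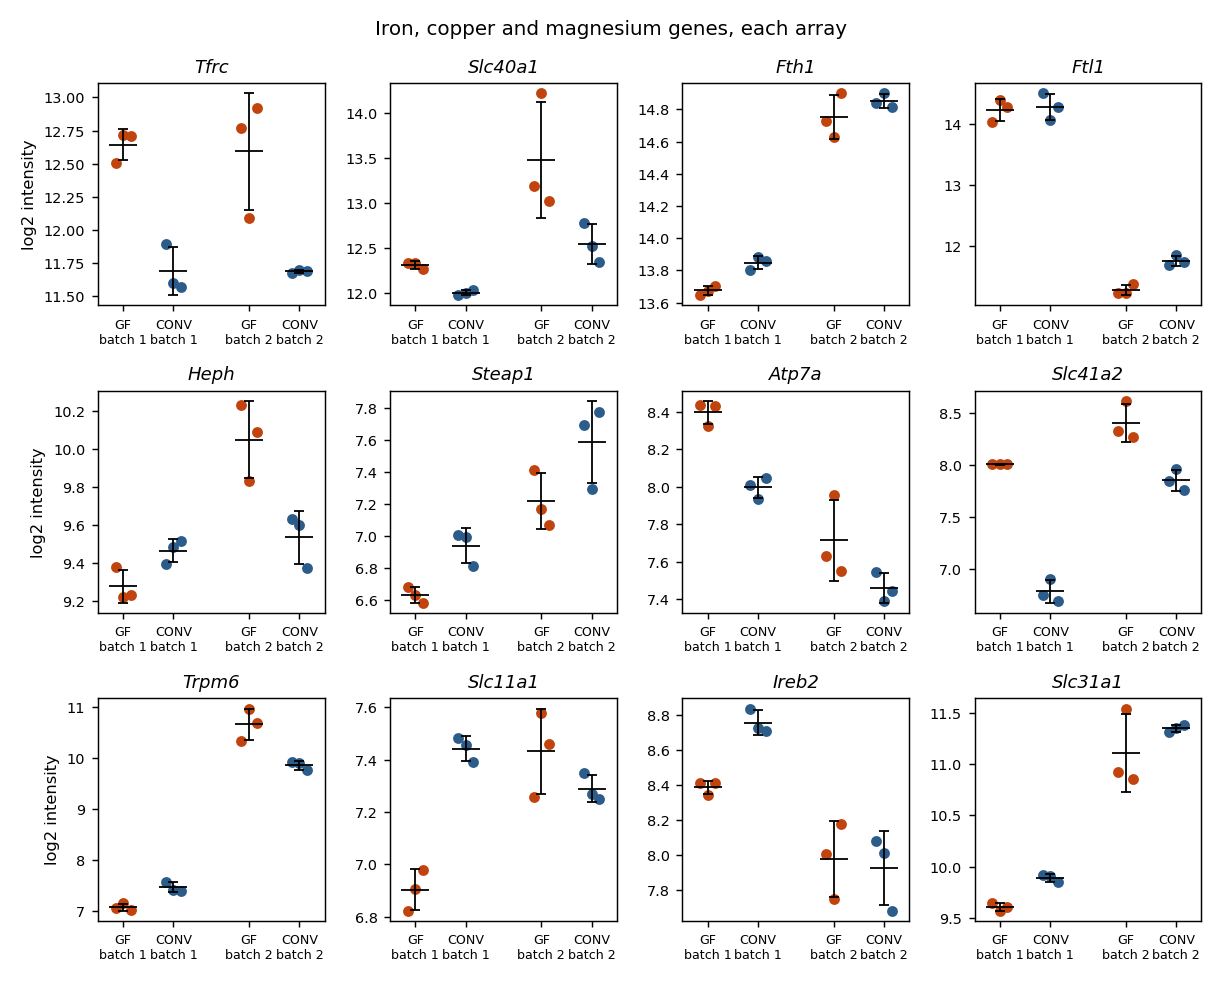
Levels (log2 intensity) of Tfrc, Slc40a1, Fth1, Ftl1, Heph, Steap1, Atp7a, Slc41a2, Trpm6, Slc11a1, Ireb2 and Slc31a1 on each array, GF left of CONV within each batch, with bars at the mean ± SD of the 3 arrays. Tfrc, Slc40a1, Atp7a and Slc41a2 lie above CONV on every GF array of each batch, GF replicate 5 of Slc40a1 stands at 14.2, and Heph and Trpm6 lie below CONV in batch 1 and above it in batch 2.

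Of 3 copper genes tested 1 was higher in GF. Atp7a, the pump that moves copper into the secretory pathway and out of the enterocyte, had levels of 8.44, 8.33 and 8.43 in GF against 8.01, 7.94 and 8.05 in CONV in batch 1, and of 7.63, 7.96 and 7.55 in GF against 7.55, 7.39 and 7.45 in CONV in batch 2. The groups did not overlap in either batch, though narrowly so in batch 2. The rise was 0.33 ± 0.08, 1.25-fold (adjusted p = 0.00998), with 0.40 in batch 1 and 0.25 in batch 2 (adjusted p = 0.000764 and 0.372). The copper importer Slc31a1 (-0.26 ± 0.10, adjusted p = 0.0834) and the copper chaperone Atox1 (0.08 ± 0.08, adjusted p = 0.515) did not pass over the 12 arrays, though Slc31a1 fell by 0.28 in batch 1 (adjusted p = 0.00303), and the related pump Atp7b was detected on no array.

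Among magnesium and calcium genes Slc41a2, a magnesium carrier, was higher in GF than in CONV on every array of each batch. Its levels were 8.01 on each of the 3 GF arrays against 6.75, 6.91 and 6.70 in CONV in batch 1, and 8.33, 8.62 and 8.28 in GF against 7.85, 7.96 and 7.76 in CONV in batch 2. Slc41a2 rose by 0.89 ± 0.12, 1.85-fold (adjusted p = 0.000327), by 1.22 in batch 1 (adjusted p = 2.19e-06) and by 0.55 in batch 2 (adjusted p = 0.0911), and less in batch 2 by the interaction (-0.67 ± 0.15, adjusted p = 0.0163).

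Trpm6, the channel for magnesium uptake at the luminal face of the large intestine, had opposite differences in the batches. It had levels of 7.06, 7.16 and 7.03 in GF against 7.58, 7.43 and 7.40 in CONV in batch 1, and of 10.34, 10.96 and 10.68 in GF against 9.92, 9.90 and 9.76 in CONV in batch 2. GF lay below CONV in batch 1 (-0.39, adjusted p = 0.00192) and above it in batch 2 (0.80, adjusted p = 0.066), with an interaction of 1.19 ± 0.19 (adjusted p = 0.00367) and 0.21 ± 0.19 over all arrays (adjusted p = 0.485). Slc41a3, of the same family as Slc41a2, did not pass over the 12 arrays (0.27 ± 0.12, adjusted p = 0.137) and rose by 0.43 in batch 1 (adjusted p = 0.0104), and the calcium channel Trpv6 was detected on 1 GF and 1 CONV array.

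The batches called different numbers of these genes. In batch 1 alone 25 of the 37 passed, 15 higher and 10 lower in GF, the higher ones including Mt4, which met the filter only through GF arrays. The lower ones of batch 1 include Slc39a10, whose CONV arrays alone were enough to meet the filter. Of all genes 46.9% passed there, 23.4% higher and 23.5% lower. In batch 2 alone 3 passed, Mt1 and Mt2 higher and Slc30a10 lower. Of all genes 2.70% passed there, 1.10% higher and 1.60% lower. Differences had the same sign in both batches for 54.1% of the 37 genes and 61.0% of all genes. GF arrays lay above all CONV arrays of their batch, in both batches, for 6 of the 37 and for 6.61% of all genes. These 6 were Atp7a, Mt1, Mt2, Slc40a1, Slc41a2 and Tfrc. GF arrays lay below in both batches for 2, Slc30a10 (near background in batch 1) and Slc39a4, and for 7.03% of all genes.

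By the interaction 10 of the 37 differences, 27.0%, changed with the batch, against 8.87% of all genes tested (3.98% with a larger and 4.88% with a smaller value in batch 2): Mt1, Mt2, Mt3, Slc30a10, Slc39a7, Slc39a14, Slc11a1, Heph, Slc41a2 and Trpm6. For Mt1, Mt2, Slc30a10 and Slc41a2 the sign was the same in both batches and the size differed. Mt3, Slc39a7, Slc39a14, Slc11a1, Heph and Trpm6 had opposite signs, of which Slc39a14 was near 0 in batch 2. The levels themselves also lay apart between batches, as for Trpm6 (7.08 in GF and 7.47 in CONV in batch 1, 10.7 in GF and 9.86 in CONV in batch 2, means of 3 arrays). Most rows had detection p-values that were multiples of 1 in 1603 in batch 1 and of 1 in 936 in batch 2, and whether the same probes stood behind a gene in both batches was not tested.

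**Figure D4:**
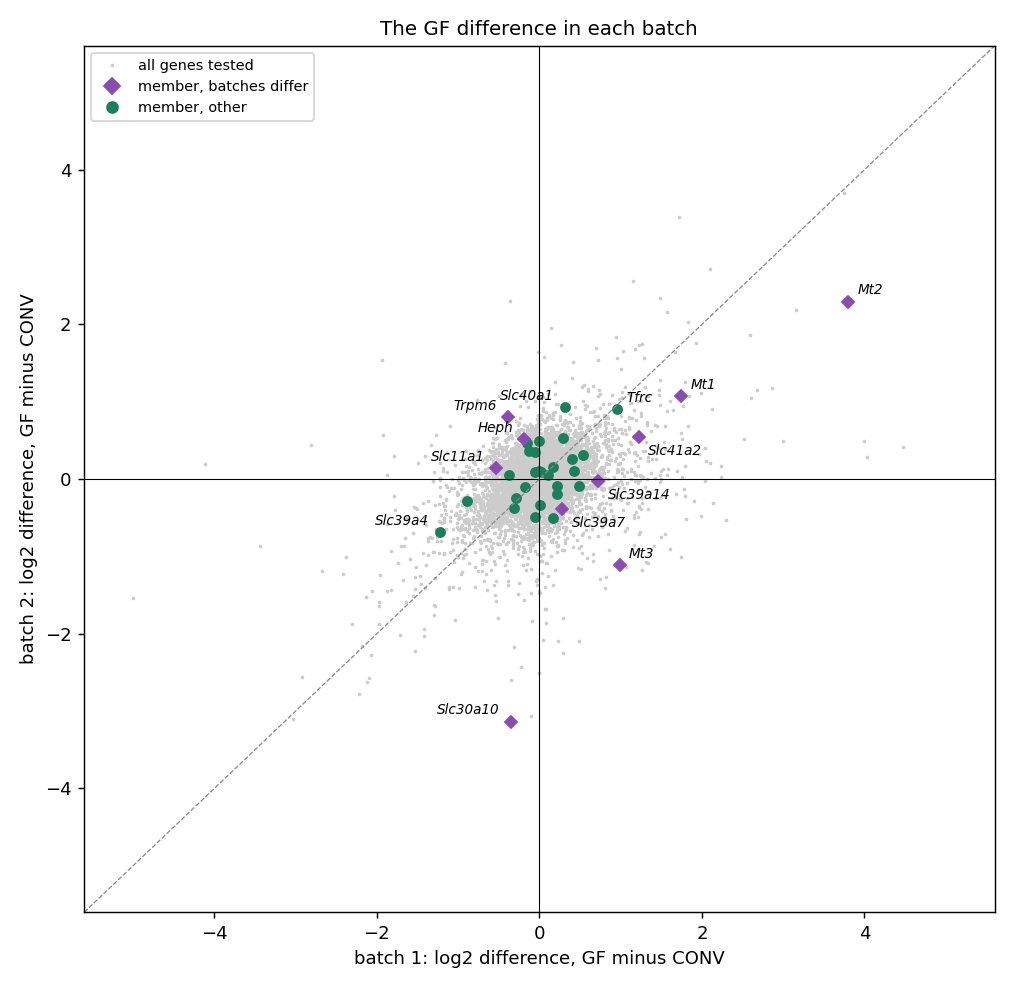
Log2 difference, GF minus CONV, in batch 1 (horizontal axis) and batch 2 (vertical axis) for all 8107 genes tested (grey) and the 37 metal-handling genes, with diamonds for the 10 whose difference changed with the batch and circles for the others. The dashed line marks equal differences. Mt1, Mt2 and Slc41a2 lie below it on the right, and Slc30a10 far below it at -3.14 in batch 2.

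Other genes of the same pathways, listed by function, were read beside these. Of all genes tested 11.3% were higher and 12.0% lower in GF. The list of systemic iron and haem transport had 11 genes tested, of which 1 rose in GF, Pcbp2, an iron chaperone, by 0.47 ± 0.07 (adjusted p = 0.00081), and 0 fell. In limma's fit 1 of the 11, Trf, the gene of transferrin, had a negative difference with an unadjusted p below 0.05. Among carriers of iron into mitochondria, Slc25a37 rose by 1.00 ± 0.17 (adjusted p = 0.00163) and its paralog Slc25a28 fell by 0.22 ± 0.07 (adjusted p = 0.0496).

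Of 6 haem genes 3 fell and 0 rose: Alad, of haem synthesis, fell by 0.55 ± 0.06 (adjusted p = 0.000107), Blvrb, a biliverdin reductase, fell by 0.67 ± 0.11 (adjusted p = 0.00139) and Uros, of haem synthesis, fell by 0.31 ± 0.08 (adjusted p = 0.0127). In limma's fit 0 of the 6 had a positive difference with an unadjusted p below 0.05. The counts of these short lists stand beside 12.0% lower and 11.3% higher among all genes tested. Of 6 copper delivery genes 1 fell, Cox11, which carries copper to cytochrome oxidase (-0.42 ± 0.09, adjusted p = 0.00662). Of 8 further magnesium and calcium genes 1 rose, the vitamin D receptor Vdr (0.36 ± 0.08, adjusted p = 0.00889).

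Metallothioneins are known to be induced by glucocorticoids as well as by zinc, so genes known for that induction were read beside them. Of 6 tested 2 rose, 1 fell and 3 did not pass, beside 11.3% higher and 12.0% lower among all genes tested. Fkbp5, a co-chaperone of the glucocorticoid receptor, rose by 0.98 ± 0.17 (adjusted p = 0.00178). Per1, a clock gene, rose by 1.14 ± 0.27 (adjusted p = 0.0104), by 2.05 in batch 1 and 0.23 in batch 2 (interaction adjusted p = 0.000184), and Cebpd differed by -0.27 ± 0.06 (adjusted p = 0.0109). Tsc22d3 did not pass (0.02 ± 0.12, adjusted p = 0.917). Their part in the metallothionein result was not tested.

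The arrays of batch 1 detected 7090 to 7402 rows and those of batch 2 6089 to 6470, and arrays of 1 group and batch correlated with r between 0.994 and 0.998 in batch 1 and between 0.979 and 0.990 in batch 2. Of the epithelial keratin genes 3 were bright, with mean levels of 14.1 for Krt8, 13.6 for Krt19 and 11.5 for Krt18. Krt18 fell by 0.78 in GF (adjusted p = 0.000112). The keratin gene Krt20 had a mean level of 8.88 and the epithelial gene Epcam 5.63, each detected on 3 GF and 3 CONV arrays. Of the markers of immune cells and fibroblasts, Ptprc, Csf1r, Cd79b and Col3a1 were detected on no array, while the T cell genes Cd3g and Lck and the macrophage gene Cd14 were detected on all 12. The fibroblast genes Pdgfra (3 GF and 0 CONV arrays) and Col1a2 (1 GF and 3 CONV) were detected, with mean levels of 4.99 and 5.15. The endothelial genes Pecam1, Vwf and Kdr had mean levels of 5.21, 5.72 and 5.69. They did not pass over the 12 arrays (adjusted p = 0.179, 0.394 and 0.466). Within batch 1 Vwf fell by 0.80 (adjusted p = 2.74e-05) and Kdr rose by 0.31 (adjusted p = 0.00328). Cd14 fell by 0.61 (adjusted p = 0.0242), with -1.01 in batch 1 and -0.20 in batch 2. Cd68, of macrophages, rose by 0.89 (adjusted p = 0.041), with 1.76 in batch 1 and 0.02 in batch 2 (interaction adjusted p = 0.00535). The macrophage genes C1qa and Lyz2 did not pass (adjusted p = 0.226 and 0.982). Cd3g rose by 1.00 in batch 1 (adjusted p = 2.41e-06) and differed by -0.26 in batch 2 (adjusted p = 0.522). Of goblet cell markers Tff3 rose by 0.68 (adjusted p = 0.00822), Clca1 fell by 0.57 (adjusted p = 0.0065) and Agr2 did not pass (-0.48, adjusted p = 0.146). The Paneth cell marker Lyz1 rose by 1.22 (adjusted p = 0.000458), with 1.57 in batch 1 and 0.88 in batch 2 (adjusted p = 3.64e-07 and 0.143). The other Paneth marker tested, Defa1, did not pass (0.36, adjusted p = 0.0687). It differed by 0.76 in batch 1 and -0.04 in batch 2 (interaction adjusted p = 0.00366). Of 5 markers of proliferating cells 4 were lower in GF, with summed intensities of 2206 to 2340 in GF and 3867 to 4430 in CONV in batch 1, and of 1655 to 2093 in GF and 3209 to 3381 in CONV in batch 2. Of 4 markers of small-intestinal enterocytes 3 were higher in GF, with sums over the list's 6 rows of 1879 to 2014 in GF and 495 to 2001 in CONV in batch 1, and of 1770 to 2347 in GF and 327 to 383 in CONV in batch 2. Of 4 enteroendocrine markers 2 were higher in GF, with sums of 6941 to 7176 in GF and 3299 to 3937 in CONV in batch 1, and of 7873 to 10257 in GF and 5324 to 6759 in CONV in batch 2. The part of these cell types in the metal genes' differences was not tested.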

How the data were processed

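RNA of isolated colonocytes of 6 GF and 6 CONV samples was measured on Illumina bead arrays, from biotin-labelled cRNA per the labels' protocols. Per the submitters' processing notes, limma was used (no version given). The array design and the genome build were not given in the sources used here.

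The deposited values are natural logs of intensity, 1 row per gene symbol: with base e as the inverse, 95.6% or more of the values on an array had 7 significant digits or fewer, and with base 2 no more than 12.3% did. How the authors combined probes is not stated in the sources used here. Any 2 arrays of batch 2 had 1831 to 1992 values exactly in common, and any 2 of batch 1 had 186 to 216, and no source used here says why. In batch 1 9971 rows had a deposited detection p-value that is a multiple of 1 in 1603, and in batch 2 9498 rows had multiples of 1 in 936 (tolerance 0.001). The other rows lie between these steps, and a bright row of that kind can count as not detected. The plan had assumed intensities, and the exponential of each value gave them back.

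Intensities were background corrected by normexp with the negative controls' mean and SD inferred from the rows on those steps (offset 16), log2 transformed and then quantile normalized on all 12 arrays together, with limma 3.58.1 in R 4.3.3. The filter (detection p below 0.05, 3 arrays or more) left 8122 rows, and taking the brightest row per gene left 8107 genes. limma's lmFit and eBayes were fitted with batch and group, two-sided, with Benjamini-Hochberg adjustment over all genes tested, and likewise within each batch and with an interaction of batch and group. A gene below background on a whole group has its fold as a bound, against its own signal or the lowest detected one on each array, whichever is higher. The number of arrays limits the precision. Each p-value sets a difference against the spread between these samples, which limma estimates with the help of all genes tested.

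Of the row names 11696 were current symbols and 2532 older ones updated through the RefSeq gene table of assembly GRCm38.p6. The others (34 that fitted several genes, 877 with no match and 15 altered by a spreadsheet) kept their names. Promoter sequences came from RefSeq on the same build.

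The steps were tested on simulated data for 8107 genes, drawn from the measured means and spreads: 12 arrays recovered 77% of 1.5-fold and 94% of 2-fold changes, and 2 of 7907 unchanged genes were called. The shares were 91% and 99% in batch 1 (5 unchanged genes called) and 20% and 48% in batch 2 (3 called).

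The members and the lists read beside them were chosen with earlier results of these data known. Named in full were members that passed over 12 arrays or in the interaction and the metallothioneins, and of the others up to 2 per role with the highest mean level. The other members and list genes were named after their values were seen. Results of some list genes are not reported here. Replicate numbers were checked for pairing: deviations of same-numbered GF and CONV arrays from their group and batch means correlated between -0.26 and 0.04, so the numbers were not taken to pair samples. The alternatives tried were other background corrections, scalings and detection filters, the authors' series matrix values (equal for 15132 of the 15154 rows), array weights, no batch term, a replicate block, and leaving out each replicate.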

Additional observations from a re-analysis of the deposited data

Results flagged for a closer look

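Of 74 groups of 6 arrays, 2 for each of the 37 genes tested, 5 held an array far from the others by Dixon's critical value once batch means were removed. Chance passes that value in about 1 in 20 groups of independent values of like spread, which these are not, and the rate for values with batch means removed was not tested. All 5 values are from batch 2, where arrays of a group were less alike (r 0.979 to 0.990, against 0.994 to 0.998 in batch 1). GF replicate 5 had a Slc40a1 level of 14.2, against 13.19 and 13.03 on the other GF arrays of batch 2. CONV replicate 5 had levels of 6.32 for Aco1 (6.97 and 6.98 on the others of its group and batch), 5.38 for Mt4 (4.69 and 4.90) and 5.38 for Slc41a3 (4.86 and 4.90), of which the last 2 genes lie near background. CONV replicate 6 had 5.39 for Hmox1 (4.80 and 4.89), which no array of batch 2 detected.

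For 10 genes the difference, GF minus CONV, changed between the batches by limma's interaction of batch and group. Batch 2 minus batch 1 was -2.78 for Slc30a10, -2.11 for Mt3, -1.51 for Mt2, -0.75 for Slc39a14, -0.67 for each of Mt1, Slc39a7 and Slc41a2, 0.68 for Slc11a1, 0.70 for Heph and 1.19 for Trpm6. Their share of the genes tested, 27.0%, stood beside 8.87% for all genes, and leaving out 1 replicate moved the number between 6 (without GF replicate 2, CONV replicate 2 or CONV replicate 3) and 12.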

How the results depend on the processing

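Mt1 and Mt2 passed, higher in GF, under all alternatives run. The 12 calls kept their direction under every alternative that tested them, and all 12 passed with no background correction, normexp without controls, the series matrix values, array weights and batch 1 arrays only. The last 3 are not independent checks. Series matrix values were equal for nearly all rows, and batch 1 is part of the 12 arrays. Array weights gave 3.64 for Mt2 and -0.67 for Slc30a10, against 3.05 and -1.74 over 12 arrays and 3.80 and -0.35 in batch 1. For Slc39a10 no test is read from batch 1. Batch 2 arrays only kept 3 calls (Mt1, Mt2 and Slc30a10), and no batch term kept 3 (Mt1, Mt2 and Tfrc). With the replicate block 8 were kept, and Mtf1 (adjusted p = 0.0554), Slc30a1 (0.0795), Slc30a10 (0.0537) and Slc40a1 (0.0634) were not. That block gave 1171 genes called and 5 members higher in GF. With array weights 4283 genes passed, 15 members higher and 8 lower over 12 arrays and 5 members within batch 2. Without a batch term 246 genes passed, 3 members higher and 0 lower by limma (2 lower at an unadjusted p below 0.05). Within batch 2, no background correction and normexp without controls each called 6 members. The filter at 0.01 on 6 arrays left 2 members lower in GF, since Slc30a10 and Slc39a10 were no longer tested.

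Leaving out each replicate gave 1369 (without GF replicate 1) to 2145 genes, 5 (without GF replicate 2) to 9 members higher, 4 to 5 lower, 21 to 26 within batch 1 and 6 to 12 with an interaction. Within batch 2 it gave 0 (without CONV replicate 5, where 13 had an unadjusted p below 0.05 in limma) to 4, with 1 without GF replicate 4 or GF replicate 6. The sign turned under at least 1 alternative for 18 members, 0 of them among the 12 calls over 12 arrays by limma. It turned past the threshold for 4: Mt3 with array weights (0.63), and, in batch 1 alone, Mt3 (0.99), Heph (-0.19), Slc39a7 (0.28) and Trpm6 (-0.39). The cause was not tested. Calls split 914 higher to 974 lower, against 1028 to 899 with 75th percentile scaling. Batch 2 recovered 48% of simulated 2-fold changes, which limits what its 3 arrays a group can show.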
